A study of Mus musculus with 16 samples.

Results

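The comparison asked whether antibiotics changed gene expression differently in 2 later bone marrow progenitors than in an earlier one. For each gene, the antibiotic-minus-control difference was taken in granulocyte-monocyte progenitors (GMPs), in common monocyte progenitors (cMoPs) and in common myeloid progenitors (CMPs). The mean of the GMP and cMoP differences minus the CMP difference, in log2 units, is called the response difference below. A positive value means that a gene was raised more, or lowered less, by antibiotics in GMPs and cMoPs than in CMPs. All 16 arrays of the series entered the comparison, because it draws on its 6 groups, and it was tested for 22180 genes. The arrays were therefore chosen by progenitor and water alone, and no measured value of a gene decided which arrays entered. The comparison itself was chosen with earlier results of these data known.

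All mice were C57BL/6 wild type. Treated mice drank water with ampicillin, metronidazole, neomycin and vancomycin, each at 1 g/L, for 3 weeks, and control mice drank water without these 4 antibiotics. Sucrose at 2% was added to both. CMPs had 3 antibiotic and 3 control arrays, GMPs had 3 antibiotic and 2 control arrays, and cMoPs had 3 antibiotic and 2 control arrays. Progenitors were sorted as lineage-negative, Kit-positive, CD105-negative cells, with an antibody against Sca-1 among the lineage antibodies. CMPs were CD115-negative with intermediate CD16/32, GMPs were CD115-negative with high CD16/32, and cMoPs were positive for CD115 and Ly6C. From each sample 2.6 ng of RNA was amplified before hybridisation. The labels do not say whether an array came from 1 mouse or a pool, nor whether the progenitors of a water group came from the same mice, and they give no age or sex. The p-values therefore measure the spread between these samples, which may be technical.

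CMPs can give rise to granulocytes, monocytes, megakaryocytes and red cells. GMPs have lost the megakaryocyte and red cell fates and make the proteases of the primary granules in large amounts, and cMoPs are committed to monocytes. Products of gut bacteria reach the marrow and are known to influence how many myeloid cells it makes, and antibiotics in the drinking water deplete those bacteria. In sorted bulk samples, fewer cells of a type within a gate and less RNA per cell cannot be told apart, and this holds for every difference below.

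The quartiles of the 16 arrays were close to each other, with medians of 4.04 to 4.17 on the log2 scale and lower quartiles of 2.89 to 2.99. Detection calls are not part of the table used here, and a level below 2.89 was not shown to be above background. Arrays of the same group correlated at r = 0.985 to 0.991 across the 22180 genes over 14 pairs. Arrays of different groups correlated at r = 0.961 to 0.991, so the highest of these was no lower. Csf1r and Fcgr3 followed the gates. Csf1r, which encodes CD115, had group means of 9.29 to 9.39 in cMoPs and of 6.52 to 7.60 in the other progenitors. Fcgr3, which encodes CD16, had group means of 6.65 to 6.68 in CMPs and of 9.28 to 9.81 in the others. Eng, which encodes the CD105 that the gate excluded, was not low, with group means of 8.17 to 8.5 in CMPs, 6.41 to 7.02 in GMPs and 7.03 to 7.22 in cMoPs. Gata2, a transcription factor of early progenitors, had group means of 9.47 to 9.51 in CMPs, 7.22 to 7.26 in GMPs and 5.20 to 5.38 in cMoPs. None of these 4 genes was called in the response difference (limma adjusted p = 0.909 for Csf1r, 0.966 for Fcgr3, 0.991 for Eng and 0.985 for Gata2). Within CMPs, however, Csf1r was lower in all antibiotic arrays (6.42 to 6.63) than in all controls (7.05 to 7.18). Such a lack of overlap was seen for 11.6% of all genes in CMPs. The CMP arrays of Fcgr3, Eng and Gata2 overlapped.

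The antibiotic response of 8 genes differed between GMPs and cMoPs on the one side and CMPs on the other. Clec4a2, a C-type lectin receptor, Fcnb, which encodes ficolin B, Cyyr1 and BC051142 had positive response differences. The MHC class II gene H2-Aa, the actin-severing gene Scin, the zinc finger gene Zik1 and Pkhd1l1 had negative ones. These 8 were 0.0361% of the 22180 genes, with 0.018% called higher and 0.018% called lower, at a Benjamini-Hochberg false discovery rate of 0.2 in limma, the rate that the series design states. At a rate of 0.05 only Clec4a2 passed. At an unadjusted p under 0.05 there were 1285 genes (5.79%). The response differences of the 8 genes ranged in size from 1.005 to 2.07, against a median size of 0.16 over all genes and a median standard error of 0.22. Of the 95 genes whose response difference was at least 1 in size, these 8 passed the test. Over all genes, the CMP differences and the mean GMP and cMoP differences, which share no arrays, had a correlation of r = 0.14. Genes are not independent replicates, and the correlation is given as a description.

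**Figure D1:**
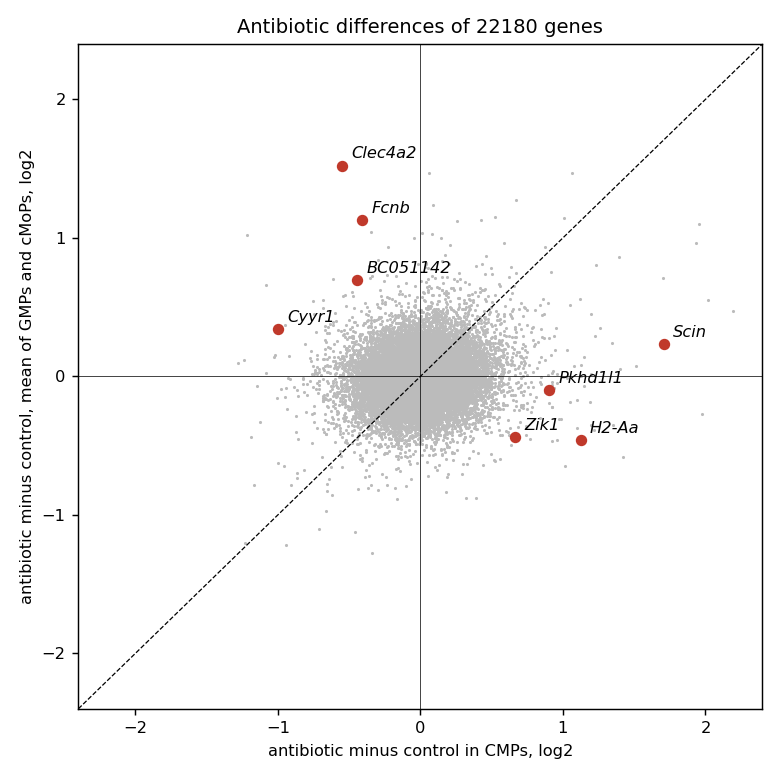
Antibiotic-minus-control difference in CMPs (x axis, log2) against the mean of the differences in GMPs and cMoPs (y axis, log2), with a grey point for each of the 22180 genes and red points for the 8 called genes. The vertical distance from the dashed line of equal differences is the response difference: Clec4a2 lies 2.07 above it and H2-Aa lies 1.59 below it.

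The number of called genes changed when an array was left out. Only 1 gene was called without CMP antibiotic 1 or CMP control 3. The number was 2 without GMP antibiotic 1, 3 without cMoP control 1, and 4 without CMP control 1 or cMoP antibiotic 3. It was 13 without CMP control 2 and 16 without CMP antibiotic 3. Clec4a2 was called in each of these 16 fits (limma adjusted p of 0.000115 to 0.00599). The other 7 genes were lost without CMP antibiotic 1 (adjusted p of 0.352 to 0.382), CMP control 1 (0.291 to 0.340), CMP control 3 (0.237 to 0.266) or cMoP control 1 (0.232 to 0.359). Without GMP antibiotic 1, 6 of these 7 were lost at 0.203, and Zik1 was kept. No response difference of the 8 genes changed sign in any of the 16 fits. Without the moderation of variances across genes, Clec4a2 and Pkhd1l1 stayed called and the other 6 were lost (adjusted p of 0.369 to 0.506).

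Clec4a2 (probe set 17462764) had the largest of these 8 response differences and the smallest p of all genes. It encodes a receptor of dendritic cells and monocytes that dampens activation through an inhibitory motif in its cytoplasmic tail. In CMPs its log2 signal was 3.87, 3.78 and 3.52 after antibiotics and 4.45, 3.90 and 4.46 in controls. In GMPs it was 7.95, 8.01 and 7.60 after antibiotics against 6.62 and 6.78. In cMoPs it was 6.92, 6.85 and 6.92 against 5.01 and 5.00. The antibiotic arrays lay above all controls in GMPs and cMoPs and below all controls in CMPs, with no overlap in any progenitor. In CMPs the separation was narrow, at 3.87 against 3.90. The CMP signals also lay around the table's median of 4.1, below all GMP and cMoP signals. Antibiotic and control arrays did not overlap for 11.6% of all genes in CMPs, 23% in GMPs and 21% in cMoPs. A pattern like that of Clec4a2, with no overlap anywhere and CMPs going the other way, was found for 22 genes (0.0992%), of which Clec4a2 was the 1 called. The response difference was 2.07 ± 0.21 (SE; limma adjusted p = 0.000846), a 4.20-fold ratio of fold changes. Within single progenitors, antibiotics changed 0.0406% of genes in CMPs, 0.0721% in GMPs and 0.131% in cMoPs at the same rate. Clec4a2 rose by 1.89 ± 0.18 in cMoPs (adjusted p = 0.000484) and by 1.15 ± 0.18 in GMPs (adjusted p = 0.0601), while the CMP difference was -0.55 ± 0.16 (adjusted p = 0.447). It was called under all 26 alternatives run, with an adjusted p of at most 0.0329.

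The 250 bases before the start of Clec4a2 in RefSeq (GRCm38.p6, chr6:123122440-123122689, plus strand, written 5′ to 3′) are shown because this gene carries the strongest call. They hold neither of the motifs searched on both strands, which were the C/EBP half-site pair TTGCNNAA, bound by factors of granulocyte and monocyte development, and CTGATTGG, the Y box of MHC class II promoters. The first was found in 9.56% and the second in 3.83% of 32851 promoter windows of this length.
Clec4a2: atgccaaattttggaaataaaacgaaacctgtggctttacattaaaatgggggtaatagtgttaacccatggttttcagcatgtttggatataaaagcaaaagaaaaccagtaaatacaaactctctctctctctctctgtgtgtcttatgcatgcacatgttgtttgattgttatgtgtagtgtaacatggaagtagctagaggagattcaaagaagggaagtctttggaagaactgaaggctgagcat

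Clec4a2 lies in a row of related lectin genes on chromosome 6, in the RefSeq order Clec4b1, Clec4a2, Clec4b2, Clec4n, Clec4d and Clec4e. Clec4b1 and Clec4b2 encode activating receptors that signal through the Fc receptor gamma chain. Clec4b2 had log2 signals of 8.23, 8.40 and 7.70 in antibiotic GMPs against 6.16 and 7.02 in controls, and of 5.58, 5.50 and 6.05 in antibiotic cMoPs against 4.04 and 4.55. In CMPs its signals were 3.80, 3.57 and 3.48 after antibiotics and 3.43, 3.58 and 3.66 in controls. Its antibiotic arrays lay above all controls in GMPs and cMoPs, and the arrays overlapped in CMPs. Clec4b2 rose by 1.52 ± 0.26 in GMPs (limma adjusted p = 0.0728) and by 1.415 ± 0.26 in cMoPs (adjusted p = 0.122), with a CMP difference of 0.06 ± 0.23. Its response difference of 1.41 ± 0.30 was not called (adjusted p = 0.335), but was called without GMP control 2 (1.62, adjusted p = 0.156).

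Clec4b1 was below 2.89 on average in 5 of the 6 groups. In GMPs its antibiotic arrays lay above all controls (2.24 to 2.55 against 2.09 to 2.12), but every one of these arrays was below 2.89. In antibiotic cMoPs its signals were 4.06, 4.38 and 3.42 against 2.74 and 2.92 in controls, a difference of 1.12 ± 0.22 (limma adjusted p = 0.156), so it rose there. Its response difference was 0.65 ± 0.26 (adjusted p = 0.776). Since control cMoPs and all CMP and GMP groups were not shown to be above background, the sizes of both values are uncertain. Clec4n, Clec4d and Clec4e encode Dectin-2, MCL and Mincle, which recognise microbial glycans and glycolipids. Their response differences were -0.05 ± 0.19, -0.18 ± 0.22 and -0.19 ± 0.37. The other family members measured were Clec4a1 (-0.27), Clec4a3 (0.55), Clec4a4 (-0.30), Clec4f (-0.18) and Clec4g (-0.24). Of these 11 Clec4 genes, Clec4a2 was the 1 called. Since the Clec4a and Clec4b genes are close paralogs, their probe sets may read more than 1 of them, which was not tested.

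**Figure D2:**
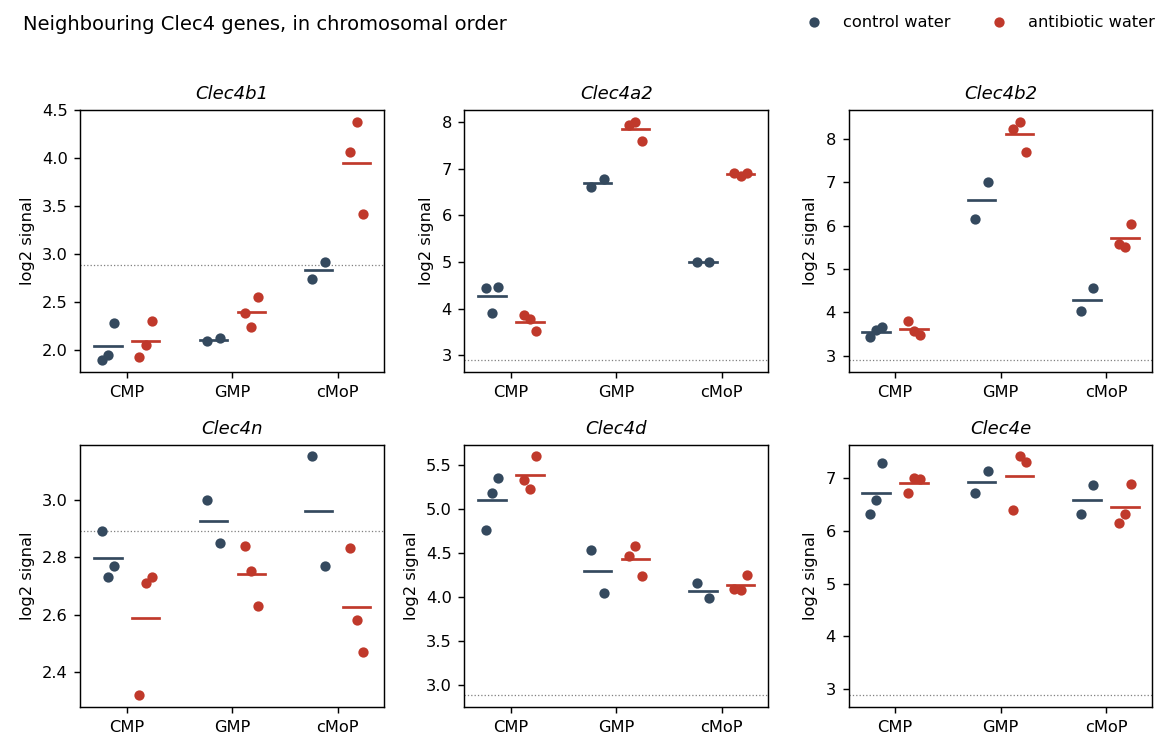
Log2 signal (y axes, which start above 0 and differ between panels) of 6 neighbouring Clec4 genes in each progenitor, with a point for each array (blue, control; red, antibiotic), a bar for each group mean and a dotted line at 2.89, the lowest lower quartile of the arrays. Clec4a2, Clec4b2 and Clec4b1 were higher after antibiotics in all GMP and cMoP arrays, though all GMP arrays of Clec4b1 lay below the dotted line. The Clec4n, Clec4d and Clec4e arrays show no such separation in both progenitors.

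Fcnb (probe set 17383353) encodes ficolin B, a soluble lectin that binds sugars on bacteria, can start the lectin pathway of complement and is made by developing granulocytes and monocytes. In GMPs its log2 signal was 9.84, 9.91 and 9.50 after antibiotics and 8.80 and 8.53 in controls. In cMoPs it was 8.62, 8.25 and 8.14 against 6.81 and 7.52. In CMPs it was 5.60, 5.83 and 5.67 against 6.32, 5.75 and 6.25. The antibiotic arrays were above all controls in GMPs and cMoPs, and the arrays overlapped in CMPs through CMP control 2. The response difference was 1.535 ± 0.26 (limma adjusted p = 0.111). Fcnb rose by 1.17 ± 0.23 in cMoPs (adjusted p = 0.140), and its differences of 1.085 ± 0.23 in GMPs (adjusted p = 0.257) and -0.41 ± 0.20 in CMPs (adjusted p = 0.702) were not called. The call was also lost without GMP control 2 (adjusted p = 0.248). Fcna, which encodes ficolin A of macrophages and was chosen after its values were seen, had a response difference of 1.05 ± 0.36 (adjusted p = 0.754) and a CMP difference of -0.81.

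The 250 bases before the start of Fcnb (chr2:28084879-28085128, minus strand, same RefSeq build) held 2 matches to the C/EBP motif, and those before the start of H2-Aa (chr17:34287824-34288073, minus strand) held 1 Y box. They are shown because both genes were called and each window holds a motif that was searched. Any part of these motifs in the antibiotic response was not tested. The capitals mark the matches, which are a description of the sequence and not of binding.
Fcnb: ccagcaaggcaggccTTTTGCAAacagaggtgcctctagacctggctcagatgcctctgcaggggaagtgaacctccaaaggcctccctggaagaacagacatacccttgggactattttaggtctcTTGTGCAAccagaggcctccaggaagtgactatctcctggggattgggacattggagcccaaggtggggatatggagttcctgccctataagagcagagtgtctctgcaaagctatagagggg
H2-Aa: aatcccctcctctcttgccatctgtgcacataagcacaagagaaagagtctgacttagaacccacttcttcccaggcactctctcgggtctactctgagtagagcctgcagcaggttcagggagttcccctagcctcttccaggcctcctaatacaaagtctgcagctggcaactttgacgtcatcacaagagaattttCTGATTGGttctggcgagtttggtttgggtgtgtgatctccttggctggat

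H2-Aa (probe set 17343813) encodes the alpha chain of an MHC class II molecule, which presents peptides to CD4 T cells. In CMPs its log2 signal was 5.45, 5.58 and 5.47 after antibiotics and 3.92, 4.55 and 4.65 in controls. In GMPs it was 3.54, 2.93 and 3.76 against 3.57 and 4.08, and in cMoPs it was 3.44, 3.70 and 3.42 against 3.94 and 4.11. The antibiotic arrays lay above all controls in CMPs and below them in cMoPs, and the arrays overlapped in GMPs. The response difference was -1.59 ± 0.28 (limma adjusted p = 0.117). None of the differences within a progenitor was called, at 1.13 ± 0.22 in CMPs (adjusted p = 0.215), -0.415 ± 0.24 in GMPs (0.753) and -0.505 ± 0.24 in cMoPs (0.820). The call was further lost without CMP antibiotic 2, GMP control 2, cMoP antibiotic 1, cMoP antibiotic 3 or cMoP control 2, at adjusted p of 0.238 to 0.274.

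The response differences of the other class II genes were nearer to 0. H2-Ab1, which encodes the beta chain of the same molecule, had log2 signals of 8.24, 8.21 and 7.95 in antibiotic CMPs against 7.82, 7.69 and 7.69. It had signals of 7.42, 7.37 and 7.48 in antibiotic GMPs against 7.04 and 7.10, and of 6.62, 7.07 and 6.41 in antibiotic cMoPs against 5.92 and 6.43. Its mean was 0.40 ± 0.17 higher after antibiotics in CMPs, 0.35 ± 0.19 higher in GMPs and 0.525 ± 0.19 higher in cMoPs, none of which was called, and its response difference was 0.04 ± 0.21 (limma adjusted p = 0.991). H2-Eb1, another class II beta chain gene, had -0.38 ± 0.21 (adjusted p = 0.865), and Ciita, the class II transactivator gene, had -0.06 ± 0.21 (adjusted p = 0.987). H2-Ab1 and Ciita were chosen after their values were seen.

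The mean log2 signal of 22 markers of dendritic cells and MHC class II, H2-Aa among them, was 6.01 to 6.03 in antibiotic CMPs and 5.87 to 5.95 in control CMPs. It was 5.45 to 5.645 against 5.45 to 5.545 in GMPs and 5.625 to 5.70 against 5.69 to 5.70 in cMoPs. Without H2-Aa the mean of the other 21 was 6.03 to 6.06 against 5.93 to 6.02 in CMPs, which were still separated. Of single members, the receptor gene Flt3 was also higher in all antibiotic CMP arrays (8.28 to 8.83 against 7.97 to 8.2). H2-Eb1 and Id2 overlapped there. B lineage markers, which other class II-positive cells would carry, had means of 4.88 to 5.15 in antibiotic CMPs against 4.82 to 4.98 in control CMPs, which overlapped. The group means in CMPs were 5.04 against 4.89 for the B lineage markers and 6.04 against 5.98 for the 21 others without H2-Aa. Of single B lineage members, Cd22 was higher in all antibiotic CMP arrays (3.37 to 3.88 against 3.25 to 3.34). Cr2 was lower in all of them (3.10 to 3.34 against 3.40 to 3.53), and Vpreb3 overlapped. The part of either marker list in the H2-Aa result was not tested.

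Scin (probe set 17280817) encodes scinderin, which severs actin filaments in a calcium-dependent manner. In CMPs its log2 signal was 7.20, 7.06 and 6.66 after antibiotics and 5.15, 5.54 and 5.10 in controls. In GMPs it was 5.03, 4.75 and 5.31 against 4.51 and 4.46, and in cMoPs it was 3.91, 3.90 and 4.33 against 4.21 and 4.05. The arrays were separated in CMPs and, by a smaller distance, in GMPs, and they overlapped in cMoPs. Its response difference was -1.48 ± 0.23 (limma adjusted p = 0.111). Scin rose by 1.71 ± 0.18 in CMPs (adjusted p = 0.00242), while the GMP and cMoP differences were 0.545 ± 0.21 (adjusted p = 0.565) and -0.08 ± 0.21 (adjusted p = 0.982). The gelsolin-family genes Gsn and Capg, whose products also act on actin filaments and which were chosen after their values were seen, had response differences of -0.09 ± 0.19 and -0.05 ± 0.22.

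Pkhd1l1 (probe set 17311350), related to the fibrocystin gene, rose by 0.90 ± 0.13 in CMPs (limma adjusted p = 0.0301). Its CMP signals were 4.97, 4.69 and 4.63 after antibiotics against 3.74, 3.95 and 3.89. Every GMP and cMoP group had a mean below 2.89, with differences of -0.03 and -0.17. Pkhd1l1 was therefore not shown to be above background outside CMPs, and its response difference of -1.005 ± 0.16 (adjusted p = 0.111) rests on the CMP arrays.

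Zik1 (probe set 17486449), a zinc finger gene whose product binds the RNA-binding protein hnRNP K, had log2 signals of 6.58, 6.22 and 6.67 in antibiotic CMPs against 5.73, 5.83 and 5.91. In cMoPs it had 5.05, 4.89 and 5.01 against 5.69 and 5.53, and in GMPs 5.77, 5.22 and 5.43 against 5.82 and 5.63. The arrays were separated in opposite directions in CMPs and cMoPs and overlapped in GMPs. The response difference was -1.11 ± 0.20 (limma adjusted p = 0.117), and none of the differences of 0.67 ± 0.15, -0.25 ± 0.17 and -0.63 ± 0.17 in CMPs, GMPs and cMoPs was called. Zik1 had the least stable call of the 8, kept in 4 of the 16 fits that left out an array (adjusted p up to 0.382). It was also lost when arrays were centred on their medians (adjusted p = 0.210).

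Cyyr1 (probe set 17331692), which encodes a membrane protein rich in cysteine and tyrosine, fell by 1.00 ± 0.18 in CMPs (limma adjusted p = 0.133). Its log2 signals there were 3.73, 4.08 and 3.56 after antibiotics and 4.79, 4.60 and 4.97 in controls. In GMPs they were 4.12, 4.17 and 3.79 against 3.55 and 3.97, and in cMoPs 4.11, 4.13 and 4.34 against 3.55 and 4.0. The arrays were separated in CMPs and cMoPs, in opposite directions, and overlapped in GMPs. The response difference was 1.34 ± 0.23 (adjusted p = 0.111), but a second and dimmer probe set of Cyyr1 had -0.16, and the mean of both had 0.59 (adjusted p = 0.706). The second probe set had a mean signal of 2.64, below 2.89, and was not shown to be above background. The call was further lost without GMP control 1 (adjusted p = 0.248) or cMoP antibiotic 3 (adjusted p = 0.255).

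BC051142 (probe set 17336536) was dim, with no group mean above the table's median of 4.1, and control GMPs and control cMoPs were below 2.89. Its log2 signals were 3.80, 3.64 and 3.72 in antibiotic GMPs against 2.74 and 2.49, and 2.99, 3.19 and 3.24 in antibiotic cMoPs against 2.80 and 2.90. In CMPs they were 3.01, 3.56 and 3.25 against 3.86, 3.47 and 3.82. The arrays were separated in GMPs and cMoPs and overlapped in CMPs. Its response difference was 1.14 ± 0.20 (limma adjusted p = 0.111), and BC051142 rose by 1.105 ± 0.17 in GMPs (adjusted p = 0.0601). Since control GMPs were not shown to be above background, the size of that rise is uncertain. The call was further lost without GMP antibiotic 3, GMP control 2, cMoP antibiotic 2 or cMoP antibiotic 3 (adjusted p of 0.204 to 0.255).

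**Figure D3:**
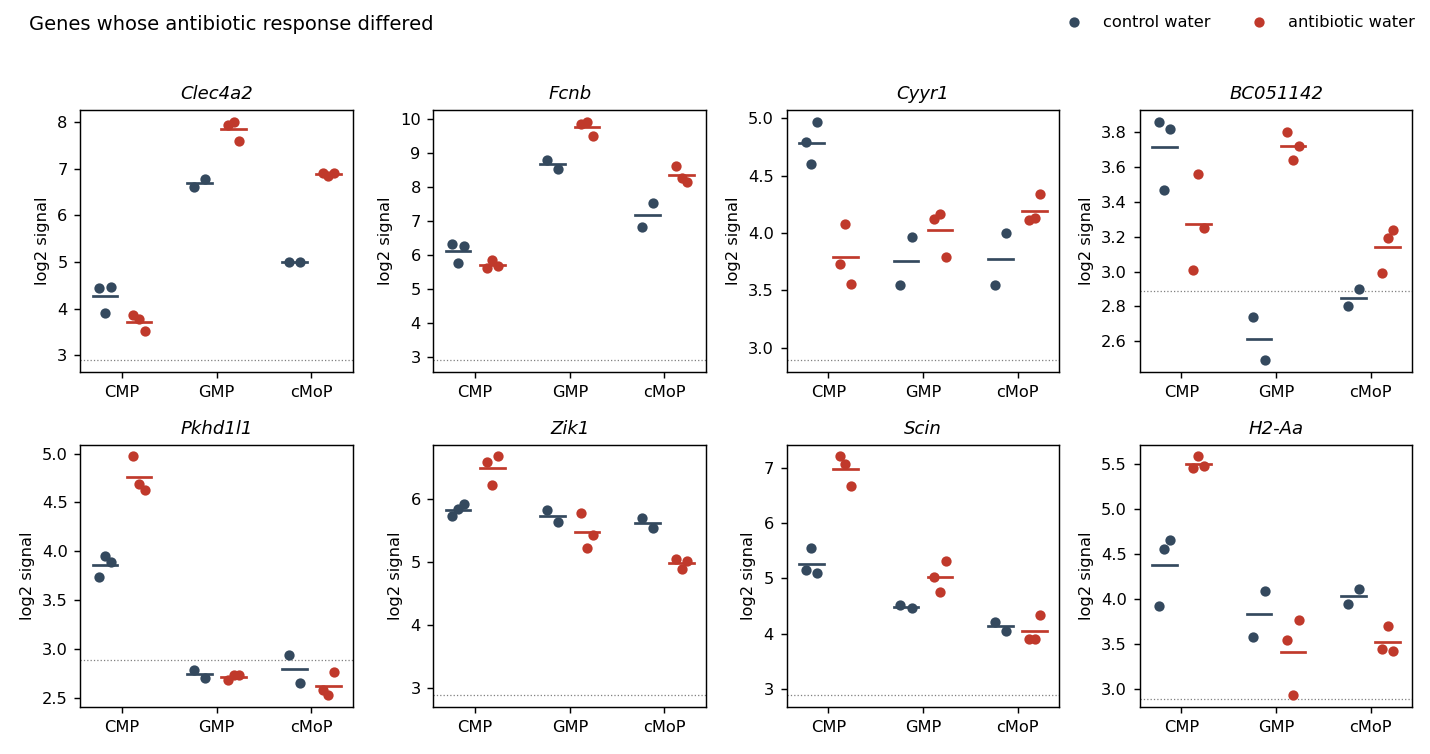
Log2 signal (y axes, which start above 0 and differ between panels) of the 8 genes whose antibiotic response differed, in each progenitor, with a point for each array (blue, control; red, antibiotic), a bar for each group mean and a dotted line at 2.89, the lowest lower quartile of the arrays. The upper row holds the genes with a positive response difference and the lower row those with a negative one; for Clec4a2 the arrays are separated in all 3 progenitors.

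When each later progenitor was set against CMPs alone, fewer genes passed. In GMPs against CMPs, 5 genes were called (0.0225%, with 0.018% higher and 0.00451% lower): Clec4a2 at 1.70 ± 0.24 (limma adjusted p = 0.0669), BC051142 at 1.55 ± 0.23 (0.0669), Car1 at 1.69 ± 0.26 (0.0718), Pilrb1 at 3.025 ± 0.51 (0.129) and Ly96 at -1.60 ± 0.27 (0.129). In cMoPs against CMPs, 2 genes were called (0.00902%, with 0.00451% in each direction), Clec4a2 at 2.44 ± 0.24 (adjusted p = 0.00083) and Scin at -1.79 ± 0.28 (adjusted p = 0.1). At an unadjusted p under 0.05 there were 1243 genes (5.6%) in the first and 1338 (6.03%) in the second comparison. These comparisons share the CMP arrays, so their shared calls are not independent of each other. Between cMoPs and GMPs the antibiotic response of 0 genes was called by limma, also without variance moderation. The smallest adjusted p was 0.712, and 1177 genes (5.31%) had an unadjusted p under 0.05. Single arrays decided these counts too. For cMoPs against GMPs the count was 20 without cMoP control 2, 2 without GMP control 1, 1 without GMP antibiotic 1, GMP antibiotic 3 or GMP control 2, and 0 without any other array. For cMoPs against CMPs it was 34 without cMoP control 2, 5 without CMP antibiotic 2, CMP control 3 or GMP antibiotic 2, 4 without CMP antibiotic 3 or CMP control 2, and 1 without CMP antibiotic 1, CMP control 1 or cMoP antibiotic 2. For GMPs against CMPs it was 10 without GMP control 1, 3 without CMP antibiotic 3, GMP antibiotic 2, cMoP antibiotic 3, cMoP control 1 or cMoP control 2, and 2 without CMP control 2.

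Clec4a2 kept its call against CMPs in both progenitors whichever array was left out (limma adjusted p of at most 0.194 in GMPs and 0.0144 in cMoPs). Without variance moderation all 5 calls in GMPs were lost (0.275 for Clec4a2 and BC051142, 0.356 for Car1, 0.682 for Pilrb1 and 0.481 for Ly96), as was that of Scin in cMoPs (0.394), while Clec4a2 kept its call in cMoPs (0.0155). BC051142 lost its call in GMPs without GMP control 2 (0.221), and Car1 without CMP antibiotic 3 (0.221), CMP control 2 (0.234) or GMP control 2 (0.232). Scin lost its call in cMoPs without CMP antibiotic 1, CMP control 1, cMoP antibiotic 1, cMoP antibiotic 2 or cMoP control 1 (0.289 to 0.430). Pilrb1 and Ly96 kept theirs in 5 and 6 of the 16 fits, with adjusted p up to 0.526. Pilrb1 was kept without CMP antibiotic 1, CMP control 1, GMP antibiotic 1, cMoP antibiotic 1 or cMoP antibiotic 2, and Ly96 without CMP antibiotic 3, CMP control 1, GMP antibiotic 3, GMP control 2, cMoP antibiotic 1 or cMoP antibiotic 2.

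Car1, Pilrb1 and Ly96 were called in GMPs against CMPs, while their response differences over GMPs and cMoPs together were not. Car1 encodes a carbonic anhydrase of red cell precursors. It had log2 signals of 8.82, 8.38 and 8.25 in antibiotic GMPs against 6.81 and 6.59, and of 6.68, 6.37 and 6.29 in antibiotic cMoPs against 6.05 and 5.45. In CMPs its signals were 12.04, 12.11 and 11.98 against 11.88, 12.04 and 11.94. Car1 rose by 1.78 ± 0.20 in GMPs (limma adjusted p = 0.00308), where the arrays were well apart, against 0.09 ± 0.17 in CMPs, where they overlapped near the top of the table's range of 1.04 to 13.75. The response difference over both later progenitors was 1.15 ± 0.22 (adjusted p = 0.229), and it was called without cMoP control 1 (1.30, adjusted p = 0.153). The mean signal of the 22 erythroid markers, Car1 among them, was 5.335 to 5.49 in antibiotic GMPs and 5.23 to 5.33 in control GMPs. Without Car1 the mean of the other 21 was 5.19 to 5.36 against 5.16 to 5.26, and the arrays overlapped.

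Pilrb1 encodes an activating immunoglobulin-like receptor of myeloid cells. Its log2 signals were 6.47, 7.25 and 6.77 in antibiotic GMPs against 5.12 and 4.93, and 4.10, 3.07 and 3.49 in antibiotic CMPs against 4.58, 4.91 and 4.83. In cMoPs they were 5.18, 3.50 and 4.17 against 3.81 and 4.27. The arrays were separated in opposite directions in GMPs and CMPs and overlapped in cMoPs, where the antibiotic arrays spread widely. The response difference over both later progenitors was 2.24 ± 0.43 (limma adjusted p = 0.229), and it was called without cMoP antibiotic 1 (2.02, adjusted p = 0.158) or cMoP antibiotic 2 (2.44, adjusted p = 0.124). The related genes Pilra and Pilrb2, chosen after their values were seen, had 0.30 ± 0.35 and 0.22 ± 0.37, and Pilrb2 was below 2.89 in 4 groups.

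Ly96 encodes MD-2, which binds bacterial lipopolysaccharide for Toll-like receptor 4. Its log2 signals were 4.06, 4.07 and 4.48 in antibiotic GMPs against 5.42 and 5.07, and 5.06, 5.33 and 4.85 in antibiotic CMPs against 4.62, 4.51 and 4.43. In cMoPs they were 5.87, 5.19 and 5.64 against 5.33 and 5.40. The arrays were separated in opposite directions in GMPs and CMPs and overlapped in cMoPs. Ly96 fell by 1.04 ± 0.20 in GMPs (limma adjusted p = 0.184), and its CMP difference of 0.56 ± 0.18 was not called. Its response difference was -0.98 ± 0.23 (adjusted p = 0.584). Tlr4 and Cd14, which encode the other parts of the lipopolysaccharide receptor and were chosen after their values were seen, had -0.15 ± 0.25 and 0.59 ± 0.41.

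The genes with the next smallest p included F13a1 and Tgfbi, both markers of monocytes, which differed mainly in CMPs. F13a1 encodes a subunit of clotting factor XIII. Its log2 signals were 6.13, 6.67 and 6.91 in antibiotic CMPs against 7.68, 7.84 and 7.64, while GMPs had 8.84, 9.05 and 9.07 against 9.16 and 9.05 and cMoPs had 10.44, 10.63 and 10.66 against 10.65 and 10.54. F13a1 fell by 1.15 ± 0.17 in CMPs (limma adjusted p = 0.0301), where alone the arrays were separated, and its response difference was 1.08 ± 0.21 (adjusted p = 0.229). It was called without CMP antibiotic 3 (1.25, adjusted p = 0.0802). Tgfbi encodes a matrix protein. Its signals were 5.45, 5.35 and 5.44 in antibiotic CMPs against 6.44, 6.13 and 6.91, and 8.80, 8.61 and 8.92 in antibiotic cMoPs against 8.27 and 8.47. In GMPs they were 6.65, 6.47 and 6.85 against 6.98 and 7.04. Tgfbi fell by 1.08 ± 0.17 in CMPs (adjusted p = 0.0685), the arrays were separated in each progenitor, upwards only in cMoPs, and the response difference was 1.11 ± 0.22 (adjusted p = 0.233). It was called without CMP control 2 (1.29, adjusted p = 0.0657).

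Another 11 genes completed the 24 of smallest p, and none of them was called. Chpt1, an enzyme of phosphatidylcholine synthesis, had 1.00 ± 0.20 (limma adjusted p = 0.256), with signals of 4.84, 4.85 and 5.30 in antibiotic CMPs against 5.40, 5.48 and 5.95 and higher values after antibiotics in every GMP and cMoP array. The amyloid precursor gene App had 0.715 ± 0.17 (adjusted p = 0.584), also with no overlap in any progenitor and CMPs going down. Timm10b, which acts in mitochondrial protein import, had 0.97 ± 0.22, the melatonin receptor gene Mtnr1b had 0.91 ± 0.20, and the olfactory receptor gene Olfr211 had 0.85 ± 0.18. Negative values were seen for Gas2l2 (-1.105 ± 0.22), the interleukin 18 receptor gene Il18r1 (-1.003 ± 0.22), the isomerase gene Fkbp7 (-1.04 ± 0.23), Asb17os (-1.35 ± 0.31), and the dim genes Esm1 (-0.85 ± 0.20) and Olfr685 (-0.70 ± 0.15). Fkbp7 and Asb17os rose in CMPs, by 1.03 ± 0.18 and 1.40 ± 0.24 (adjusted p = 0.118 each). In CMPs Il18r1 had signals of 5.14, 4.38 and 4.67 after antibiotics and 3.93, 4.10 and 3.82 in controls, which were separated but not called within CMPs (adjusted p = 0.237). Leaving out 1 array brought a call for Fkbp7 (adjusted p = 0.0563) and Il18r1 (0.141) without CMP antibiotic 2, for Chpt1 (0.0995) without CMP antibiotic 3, and for Gas2l2 (0.0867) and Mtnr1b (0.137) without cMoP control 2.

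**Figure D4:**
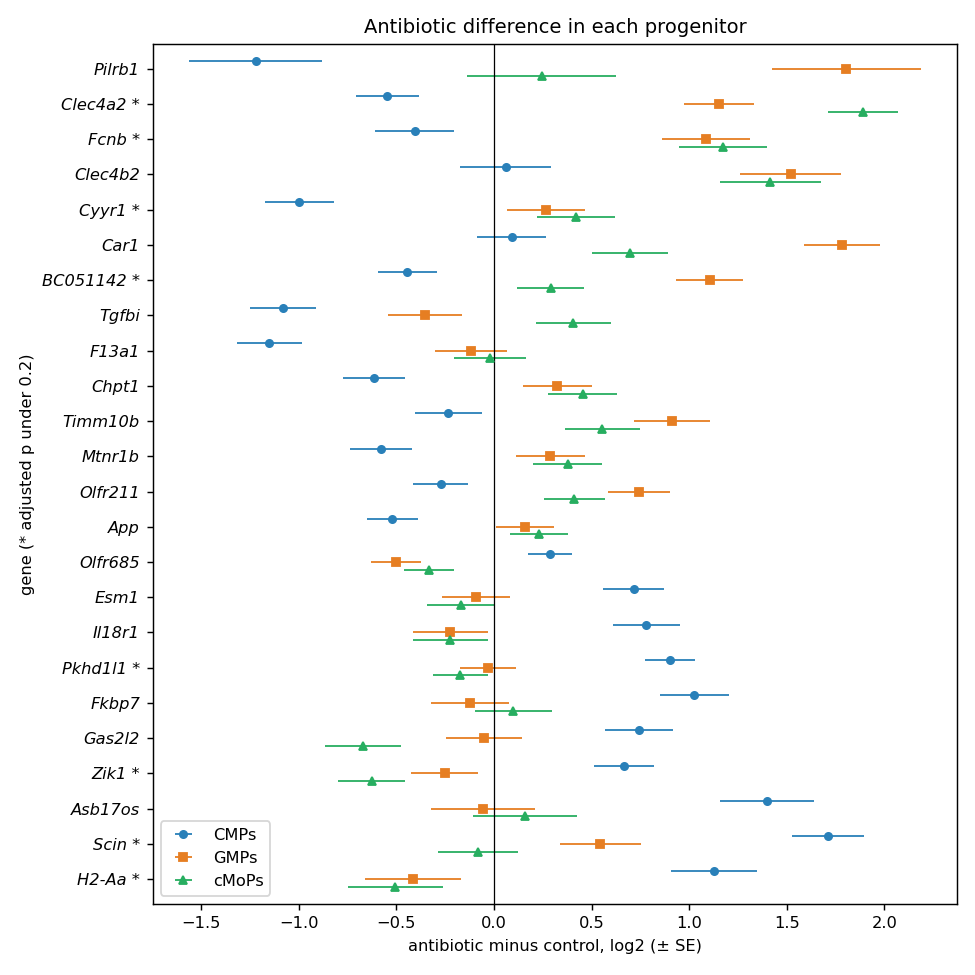
Antibiotic-minus-control difference (x axis, log2, with bars of 1 standard error) in CMPs (circles), GMPs (squares) and cMoPs (triangles) for the 24 genes of smallest p, ordered by their response difference, with an asterisk at the 8 genes called at an adjusted p under 0.2. The genes were chosen on the distance between these points, which for Clec4a2 lie at -0.55 in CMPs, 1.15 in GMPs and 1.89 in cMoPs.

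Gene lists were described by counts and medians, with no test, beside all 22180 genes, of which 49.4% had a positive response difference and whose median was -0.0033. Genes of the granulocyte and monocyte lineages leaned to positive values. Of 39 monocyte genes, 29 were positive (74.4%), with a median of 0.245. Limma called 0 of them, and 7 higher and 0 lower had an unadjusted p under 0.05 (17.9%, against 5.79% of all genes). Their median antibiotic difference was -0.20 in CMPs, -0.12 in GMPs and 0.065 in cMoPs. The list holds F13a1 and Tgfbi, and the third smallest p was that of Sirpa, the inhibitory receptor for CD47, at 0.60 ± 0.19 (adjusted p = 0.726). The mean signal of the list was 6.15 to 6.33 in antibiotic CMPs and 6.43 to 6.50 in control CMPs, with no overlap. It was 6.61 to 6.75 against 6.80 to 6.85 in GMPs, also lower after antibiotics, and 7.73 to 7.83 against 7.65 to 7.73 in cMoPs.

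Of 20 genes of primary granules and early neutrophils, Fcnb was the 1 called, 14 were positive and the median was 0.15. At an unadjusted p under 0.05, 4 were higher and 0 lower (20%, against 5.79% of all genes). Prtn3 and Elane, the granule proteases proteinase 3 and neutrophil elastase, had response differences of 0.80 ± 0.23 and 0.78 ± 0.33 (limma adjusted p = 0.646 and 0.811). Prtn3 had log2 signals of 9.75, 9.86 and 10.45 in antibiotic CMPs against 10.81, 10.63 and 11.09, and Elane had 9.03, 9.72 and 10.36 against 10.44, 10.01 and 10.88. In CMPs the arrays were separated for Prtn3 and overlapped for Elane, while in GMPs and cMoPs the differences of both genes lay between -0.11 and 0.08. Their signals in GMPs and cMoPs, 11.98 to 12.93, were near the top of the table's range of 1.04 to 13.75. Prtn3 was called without CMP antibiotic 3 (1.02, adjusted p = 0.198). Without CMP antibiotic 1 the median of the list was 0.05. Of 31 genes of late granules and mature neutrophils, 23 were positive and the median was 0.18. The median was 0.0975 without CMP antibiotic 2. Limma called 0, and 5 higher had an unadjusted p under 0.05. Mcemp1 had 1.09 ± 0.36 (adjusted p = 0.730) and was called without CMP antibiotic 3 (1.54, adjusted p = 0.0754), the chitinase-like gene Chil3 had 0.705 ± 0.27 (adjusted p = 0.767) and the lipocalin gene Lcn2 had 0.47 ± 0.17 (adjusted p = 0.767). Of 23 macrophage genes 16 were positive, with a median of 0.17, which was 0.06 without CMP control 3. Limma called 0, and 3 higher and 1 lower had an unadjusted p under 0.05.

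Markers of other lineages leaned the other way, by amounts that depended on single arrays. Of 19 B lineage genes, 13 were negative and the median was -0.22, with Vpreb3, the chaperone of the pre-B cell receptor, at -0.79 ± 0.26 (limma adjusted p = 0.730). Of 31 genes of stem and multipotent progenitors, 21 were negative and the median was -0.15, with the receptor gene Cd27 at -0.77 ± 0.27 (adjusted p = 0.754) and the homeobox gene Hoxa9 at -0.685 ± 0.26 (adjusted p = 0.767). Their median antibiotic difference was 0.02 in CMPs, -0.07 in GMPs and -0.17 in cMoPs. Erythroid genes had 13 of 22 negative and a median of -0.14, although Car1 was positive, with the transferrin receptor gene Tfrc at -0.65 ± 0.19 and the blood group gene Rhd at -0.57 ± 0.18. Megakaryocyte and platelet genes had 13 of 21 negative and a median of -0.11, with Thbs1, which encodes thrombospondin 1, at -0.93 ± 0.22 (adjusted p = 0.584). Leaving out 1 array moved the B lineage median to as little as -0.035 (without GMP control 2), the stem median to -0.07 (without cMoP control 1) and the erythroid median to -0.04 (without CMP control 2), and turned the megakaryocyte median to 0.0017 (without CMP antibiotic 3). Limma called 0 genes in these 4 lists, but Thbs1 was called without GMP control 1 (adjusted p = 0.184). At an unadjusted p under 0.05, 2 B lineage, 5 stem, 3 erythroid and 3 megakaryocyte genes were lower, and 1, 2, 1 and 0 were higher.

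The remaining markers of other cells stayed near the median of all genes. T and NK cell genes had 8 of 23 positive (median -0.07), and Cd3d, a chain of the T cell receptor complex, had -1.29 ± 0.35 (limma adjusted p = 0.618). The medians of eosinophil, basophil and mast cell genes (0.00), dendritic cell and MHC class II genes (-0.02) and stromal and endothelial genes (-0.03) changed sign when the arrays were rescaled and when single arrays were left out, as did that of the 17 sort gate genes (-0.02). Limma called 0 T and NK cell genes, with 1 higher and 1 lower at an unadjusted p under 0.05, and 0 eosinophil, basophil and mast cell genes, with 2 higher and 1 lower. It called 0 stromal genes, with 0 at that p, and 0 sort gate genes, with 1 lower. In the dendritic cell list H2-Aa was called lower, 11 of 22 were positive, and 0 were higher and 2 lower at that p (9.09%, against 5.79% of all genes). The list of 18 C-type lectins of myeloid cells held Clec4a2 as its 1 called gene, with 7 positive, and 4 higher and 1 lower at that p (27.8%). Its median was -0.14, while its mean was 0.17, and the median was 0.10 among genes brighter than the median gene.

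The median antibiotic difference of type I interferon-induced genes was -0.39 in CMPs, -0.17 in GMPs and -0.26 in cMoPs. Their response differences had a median of 0.11, or 0.0225 without CMP antibiotic 2, and 22 of 36 were positive. Limma called 0, with 4 higher and 1 lower at an unadjusted p under 0.05. The mean signal of the list was 5.79 to 6.10 in antibiotic CMPs against 6.2 to 6.33 in controls, 5.41 to 5.61 against 5.76 to 5.82 in GMPs, and 5.23 to 5.43 against 5.57 to 5.73 in cMoPs. Antibiotic arrays lay below all controls in each progenitor. Eif2ak2, the kinase PKR, had a response difference of 0.64 ± 0.21, Sp100, a nuclear body protein, had 0.47 ± 0.15, and Mx2, a dynamin-like antiviral protein, had -1.15 ± 0.34 (adjusted p of 0.719 to 0.730). Of 25 interferon-gamma genes, 18 were positive with a median of 0.04, or 0.0075 without CMP control 2, and the guanylate-binding protein gene Gbp7 had 0.74 ± 0.27 (adjusted p = 0.767). Limma called 0 of them, with 2 higher and 1 lower at an unadjusted p under 0.05.

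**Figure D5:**
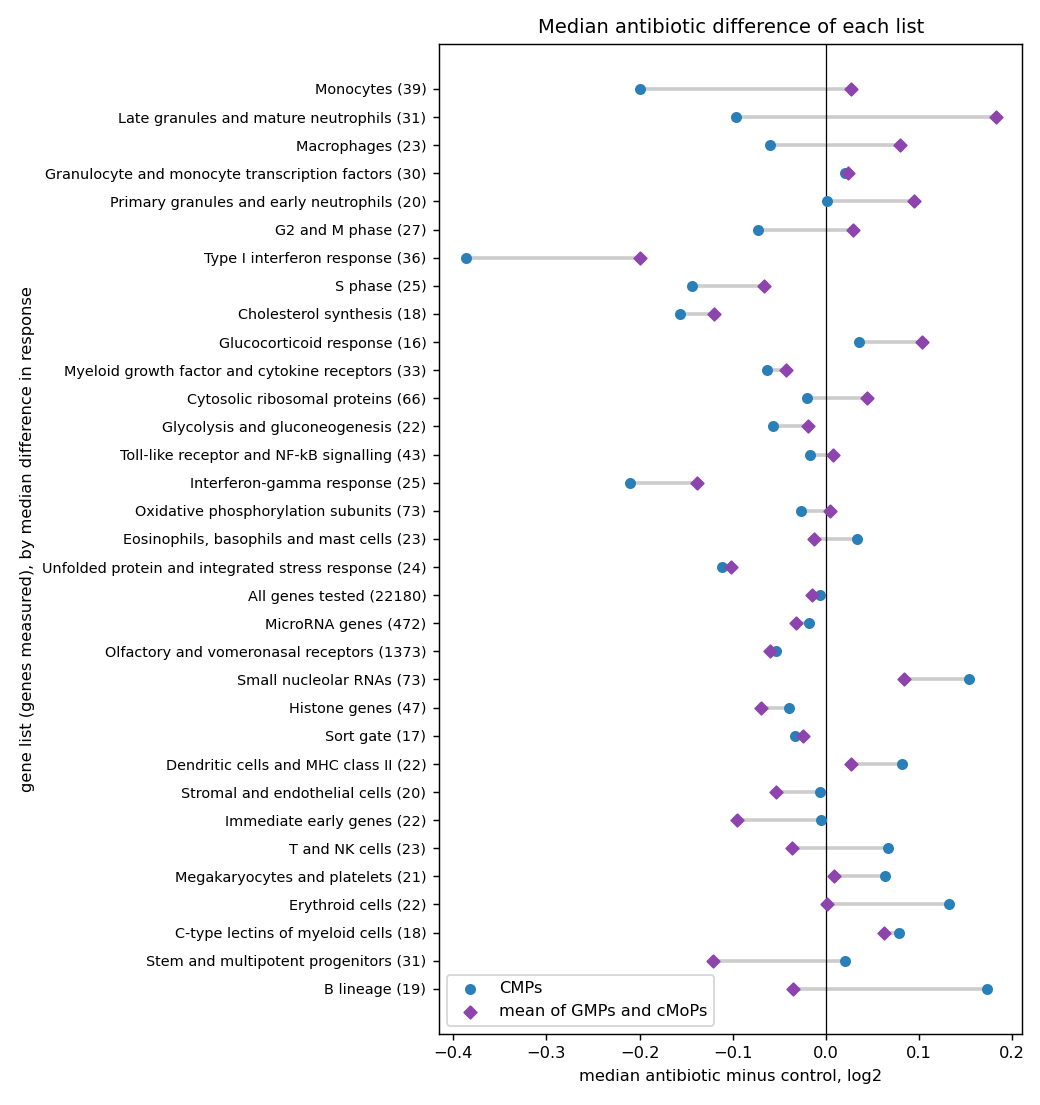
Median antibiotic-minus-control difference (x axis, log2) of each gene list in CMPs (circles) and of the mean of GMPs and cMoPs (diamonds), with the number of measured genes in brackets and the lists ordered by their median response difference. Monocyte genes head the order, with a median of -0.20 in CMPs, and B lineage genes are at its other end; no list was tested.

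Of 43 Toll-like receptor and NF-kB signalling genes, 27 were positive with a median of 0.05, and Lbp, the lipopolysaccharide-binding protein gene, had 0.73 ± 0.21 (limma adjusted p = 0.660) and was called without CMP antibiotic 3 (0.93, adjusted p = 0.198). Cell cycle genes were mostly positive but small in size: of 27 genes of the G2 and M phases 23 were positive (85.2%; median 0.115), with the mitotic kinase gene Aurkb at 0.39 ± 0.16, and of 25 S phase genes 17 were positive (median 0.09). Growth factor and cytokine receptor genes had 20 of 33 positive (median 0.07), and transcription factors of granulocytes and monocytes had 17 of 30 positive (median 0.17), with Cebpd at 0.63 ± 0.28 (adjusted p = 0.836). Cholesterol synthesis had 10 of 18 positive (median 0.09), glucocorticoid response genes had 9 of 16 (median 0.09, but below 0 without CMP antibiotic 1, at -0.07, or CMP control 1), glycolysis had 15 of 22 (median 0.06) and the unfolded protein and integrated stress response had 11 of 24 (median 0.00, which changed sign when the arrays were rescaled or left out singly). Immediate early genes had a median of -0.07 and a mean of 0.07, with 10 of 22 positive. The median was above 0 without CMP control 3, where it was 0.185, GMP control 1 or cMoP control 1. Limma called 0 genes in each of these lists. At an unadjusted p under 0.05, the Toll-like receptor list had 3 higher and 4 lower and the receptor list 2 higher and 3 lower. The G2 and M phase list and cholesterol synthesis had 2 higher each, the transcription factors, glycolysis and glucocorticoid lists 1 higher each and the stress response list 1 lower. S phase and immediate early genes had 0.

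The large families showed medians close to that of all genes. These were 0.06 for 66 cytosolic ribosomal protein genes, 0.03 for 73 subunits of oxidative phosphorylation, -0.02 for 73 small nucleolar RNA genes, -0.01 for 472 microRNA genes, -0.02 for 47 histone genes and -0.02 for 1373 olfactory and vomeronasal receptor genes. The medians of the last 4 changed sign when the arrays were rescaled and when single arrays were left out. Limma called 0 genes in each family. At an unadjusted p under 0.05, 7 microRNA genes were higher and 17 lower (5.08%, against 5.79% of all genes). Of the olfactory and vomeronasal receptor genes, 31 were higher and 45 lower at that p (5.54%). Of the small nucleolar RNA genes, 4 were higher and 4 lower (10.96%). There were 1 higher and 1 lower ribosomal protein gene, 1 lower histone gene and 0 oxidative phosphorylation genes. Among single members, Snora2b had -1.66 ± 0.54, Mir374b had -1.54 ± 0.38, Mir186 had -1.47 ± 0.47, Mir107 had 1.32 ± 0.34 and the small nucleolar RNA gene Snord13 had 0.63 ± 0.19, none of them called (limma adjusted p of 0.584 to 0.730). Mir107 reached an adjusted p of 0.116 without CMP control 2. The probe sets of microRNA genes read the locus, and the mature arm cannot be told from them.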

How the data were processed

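The authors' deposited table holds log2 signals of 41345 probe sets on 16 arrays, 1 per sample. The labels' protocols describe amplification of the RNA, and the submitters' processing notes name Partek and Transcriptome Analysis Console, while the sources used here do not give the background correction, normalization or annotation build. Of the probe sets, 23521 carry 1 gene symbol, 1814 carry several and 16010 carry none in the platform annotation. The brightest single-symbol probe set stood for each of 22180 genes. A linear model with 6 group means was fitted in limma 3.58.1 (R 4.3.3) with moderated variances, and p-values were adjusted by Benjamini-Hochberg over all genes. Genes were called at a rate of 0.2.

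Named genes were the called ones, filled to 24 by smallest p, up to 3 further genes per list by p, paralogs of the Clec4 family, the sort gate genes and genes called for GMPs or cMoPs alone. Partner genes were chosen after their values were seen. "Dim" means no group mean above 4.1. The comparison, the 26 lists and the 6 name-based families were chosen with earlier results of these data known. Deviations of same-numbered arrays from their group means correlated above 0.1 in 2 of 15 pairs. With 2 or 3 arrays a group this cannot show whether the numbers pair the samples, and the main fit used no pairing. The code was tested on simulated data. Alternatives covered variance models, weights, scaling, filters, probe set choice, blocks and leaving out each array. List means without Car1 or H2-Aa were added after seeing the data.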

Additional observations from a re-analysis of the deposited data

Results flagged for a closer look

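These results are listed because the antibiotic response was tested between progenitors and differed. Over GMPs and cMoPs together against CMPs, limma's interaction contrast called Clec4a2 at 2.07, Fcnb at 1.535, Cyyr1 at 1.34, BC051142 at 1.14, H2-Aa at -1.59, Scin at -1.48, Zik1 at -1.11 and Pkhd1l1 at -1.005. In GMPs against CMPs it called Clec4a2 at 1.70, BC051142 at 1.55, Car1 at 1.69, Pilrb1 at 3.025 and Ly96 at -1.60. In cMoPs against CMPs it called Clec4a2 at 2.44 and Scin at -1.79. Groups had 2 or 3 arrays, so single arrays were not tested as outliers. CMP control 2 lay apart from the other arrays on the fourth principal component, which held 4.82% of the variance, and without it 7 of the 8 genes remained called.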

How the results depend on the processing

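The response difference of GMPs and cMoPs against CMPs called 8 genes in limma. The count was 14 with trended and robust variances, 4 without moderation, 4 among genes brighter than the median gene, 1 with all probe sets and 1 at a rate of 0.05. The 14 included all 8, and the 4 without moderation included 2 of them. Centring the arrays kept the count at 8 but moved the split from 4 higher and 4 lower to 5 and 3, and shifted the median of all genes to 0.036. Leaving out 1 array gave 1 to 16 calls. GMPs against CMPs had 5 calls, and 1 without moderation, which was none of the 5, 3 with array weights, 0 at a rate of 0.05 and 2 to 10 without 1 array. At an unadjusted p under 0.05 that comparison had 1243 genes. cMoPs against CMPs had 2 calls, and 4 with trended and robust variances, 4 after quantile normalization, 6 after centring, 4 among brighter genes, 1 with all probe sets, 1 at a rate of 0.05 and 1 to 34 without 1 array. cMoPs against GMPs had 0 calls in limma under all alternatives but leaving out 1 array, which gave 0 to 20. The cause of these changes was not tested, except that a stricter rate, fewer genes or more probe sets change the adjustment by construction.

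The replicate numbers are not known to pair the samples. Deviations of same-numbered arrays from their group means correlated at r = -0.042 to 0.137, among genes brighter than the median gene. With the number within each water as a fixed replicate block, GMPs and cMoPs against CMPs had 1 call (Clec4a2), with the other 7 genes at adjusted p of 0.304 to 0.388, GMPs against CMPs had 0, with Clec4a2 at 0.304, and cMoPs against CMPs had 2, with Scin lost at 0.478. With the number over both waters as a replicate block these 3 counts were 9, 2 and 3, with Scin lost in cMoPs at 0.209, and with a random replicate block they were 8, 5 and 2. No called gene changed sign under any alternative. Over 3847 values of the 150 named genes under the alternatives, 70 lost a call, in 7 genes, and 28 gained one, in 18 genes. Of 832 list medians, 72 changed sign. Dim signals, 2 or 3 arrays a group and the lack of detection calls limit what could be called.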
